A study of Mus musculus with 6 samples.

Results

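The genes described here encode the transcription factors of activator protein 1 (AP-1). The genes were measured in mouse cells labelled HL-1 that were injured by oxygen and glucose deprivation. They are 8 of the 21959 genes in the deposited expression table and were chosen by name as a gene family, with earlier results of these data known: the JUN genes Jun, Junb and Jund, the FOS genes Fos, Fosb, Fosl1 and Fosl2, and Atf3. All 8 passed the filter on low counts. The table holds 6 libraries labelled as wild type HL-1 cells, grown in medium with norepinephrine. HL-1 is an established line derived from mouse atrial muscle and is labelled here as heart. The marker counts given below go against that label. All 6 came from cells given oxygen-glucose deprivation and reoxygenation (OGD/R), stated as 4 h without oxygen and glucose and then 24 h of normal culture. The OGD/R group has 3 libraries and no drug, and the OGD/R + phillyrin group has 3 libraries from cells that had 50 µg/mL phillyrin, a lignan glucoside, for 8 h beforehand and for 16 h together with OGD/R. How those 16 h fall within the deprivation and reoxygenation is not stated. Uninjured cells and cells given the solvent of phillyrin were not analysed here, so each value below compares injured cells with and without the compound, at a single time.

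AP-1 is a dimer of basic leucine zipper (bZIP) proteins. JUN proteins pair with one another or with FOS proteins, whereas FOS proteins bind DNA only when paired with a JUN partner, and the dimers recognise short palindromes known as TPA response elements (TRE) and cyclic AMP response elements (CRE). In cardiac muscle the genes are known as early responders to ischemia, stretch and growth signals, switched on through MAP kinases. Their transcripts are short-lived, in part because of AU-rich elements in the 3′ untranslated region (UTR).

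The libraries held between 14761317 and 22123648 counts each. With phillyrin 3694 of 11658 tested genes (31.7%) passed the test (edgeR quasi-likelihood, Benjamini-Hochberg adjusted p under 0.05), 1871 of them higher and 1823 lower. The split depends on the scaling: with library size as the only scaling it was 1313 higher and 2455 lower, and the median log2 difference of all genes was -0.06 in place of -0.01. Cell identity was checked with marker lists. Of 12 atrial muscle markers, 8 were below 0.5 CPM (counts scaled to library totals adjusted by TMM factors) in all 6 libraries, and 4 of those (Actn2, Mybphl, Myh6 and Sln) had no count at all, so the cells are named only as their label gives them. The summed level of the 12 was 816 to 832 CPM in OGD/R and 855 to 904 CPM with phillyrin, nearly all of it from Des and Tnnt2. Skeletal myoblast markers summed to 578 to 594 CPM in OGD/R and 515 to 547 CPM with phillyrin, with 4 of 8 lower and Myod1 higher. Mean CPM in OGD/R and with phillyrin was 305 and 271 for Chrna1, 132 and 102 for Cdh15. For Myod1 it was 83.2 and 97.2, for Myf5 64.2 and 52.5, and for the atrial marker Gata4 30.8 and 28.3. Pax7, Mymk, Myog and Mymx were at or below 3.39 CPM in every library. The atrial markers Nppa, Myl7 and Actc1 were at or below 0.0914 CPM in every library. The near absence of these atrial markers, beside expressed myoblast markers, goes against the atrial label. The counts do not by themselves name another line, and the identity of the cells was not tested in another way. Fibroblast markers summed to 2281 to 2322 and 1797 to 1950 CPM, with 3 of 7 lower and Lum at 0. Leukocyte markers stayed at or below 4.33 CPM and endothelial markers at or below 1.35 CPM in sum, with Adgre1, Cd3e and Kdr at 0. Epithelial markers summed to 54.2 to 56.5 and 50.1 to 55.3 CPM, with Krt14 higher, Krt19 lower, and Epcam and Krt5 at 0. The share of these marker differences in the AP-1 values was not tested.

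Of the 8 AP-1 genes, 4 passed the test (edgeR, adjusted over all 11658 genes), against 31.7% of all genes. Jun, Atf3 and Fosl1 fell with phillyrin (3 of 8, against 15.6% of all genes), Fosl2 rose (1 of 8, against 16%), and Fos, Fosb, Junb and Jund did not pass. The same 4 genes were those whose libraries did not overlap between the groups, which held for 43.1% of all genes tested. The changes were small, from -0.29 to 0.18 on the log2 scale, where the median size of a called change over all genes was 0.26. The median of the 8 differences was -0.23, beside -0.01 over all genes tested. In bulk RNA, fewer cells that express a gene and less RNA per cell cannot be told apart.

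Sequences are shown for the genes that changed, starting with the 250 bases upstream of the annotated start of Jun, Atf3 and Fosl2 (RefSeq, build GRCm38.p6, on the strand of the gene). They were chosen because Jun and Atf3 fell and Fosl2 rose, and because Jun and Atf3 are known to be controlled through CRE-like elements. Capitals mark matches to TNACNTCA on either strand, letters written to cover those known elements.
Jun, chr4:95052223-95052472, minus strand: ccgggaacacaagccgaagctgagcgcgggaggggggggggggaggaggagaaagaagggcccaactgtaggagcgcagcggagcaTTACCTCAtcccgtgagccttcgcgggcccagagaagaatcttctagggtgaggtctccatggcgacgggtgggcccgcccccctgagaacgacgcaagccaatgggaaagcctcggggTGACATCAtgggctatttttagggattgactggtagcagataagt
Atf3, chr1:191183334-191183583, minus strand: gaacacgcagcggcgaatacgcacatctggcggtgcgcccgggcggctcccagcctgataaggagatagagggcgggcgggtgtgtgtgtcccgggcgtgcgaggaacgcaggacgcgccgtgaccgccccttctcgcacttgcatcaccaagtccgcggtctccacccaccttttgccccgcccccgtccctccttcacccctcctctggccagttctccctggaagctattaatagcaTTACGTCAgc
Fosl2, chr5:32136222-32136471, plus strand: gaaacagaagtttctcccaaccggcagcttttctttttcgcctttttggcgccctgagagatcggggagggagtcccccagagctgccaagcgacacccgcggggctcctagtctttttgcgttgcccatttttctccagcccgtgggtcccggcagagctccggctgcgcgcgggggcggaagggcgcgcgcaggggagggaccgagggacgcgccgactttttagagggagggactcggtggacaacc
The Jun window holds TTACCTCA at bases -164 to -157 from the start and TGACATCA at -45 to -38, and the Atf3 window holds TTACGTCA at -10 to -3. The Fosl2 window holds no match. Among the 7 AP-1 genes with a window in RefSeq (no window was given for Fosl1), 3 held a match, the other being Jund with TGAGGTGA at -95 to -88. Since the letters were written from the Jun and Atf3 elements, those matches were fixed by the choice and the count is not set against a background. For reference, 14% of 32851 mouse windows of this length hold the letters. The TRE letters TGANTCA, which read alike on both strands, were in 0 of 7 windows and in 6.75% of all. A match is a run of letters and not a measured binding site. The letters do not cover every CRE-like run, so a window without a match may still hold one. The Fos window, for example, holds tgacgtag, which they miss.

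The pentamer ATTTA, the core of AU-rich elements, is in the 3′ UTR of all 8 transcripts (GENCODE annotation, GRCm38). At least 1 is found in 61.6% of 20625 genes. One stretch of 27 bases is shown for each gene that changed, with the pentamers in capitals.
Jun: cATTTAtaatcataggaaagATTTAgt
Atf3: ccaattccaggATTTAggccttatcat
Fosl1: gggcagctgctATTTAttttcctaaag
Fosl2: ttgacATTTAttttattATTTAtttta
Fosl2 has 8 pentamers in a 3′ UTR of 4653 bases, and 8.96% of 20625 genes have at least as many. Jun has 4 in 1233 bases (25% of genes have at least as many), Atf3 has 3 in 1186 bases (32.2%) and Fosl1 has 1 in 638 bases (61.6%). Per kilobase of 3′ UTR the numbers are 1.72 for Fosl2, 3.24 for Jun, 2.53 for Atf3 and 1.57 for Fosl1. The genes that did not pass have 4 in Fos (4.91 per kilobase), 2 in Junb (4.12), and 1 each in Fosb (0.466) and Jund (1.88). The median gene has 1.

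Jun (ENSMUSG00000052684, chromosome 4, 94937271 to 94940459, minus strand, GRCm39, a gene of 1 exon) encodes c-Jun, the JUN protein with the strongest activating role and the main substrate of the JNK kinases. It stood at 130, 133 and 128 CPM in OGD/R, against 113, 113 and 105 CPM with phillyrin. Every phillyrin library was below every OGD/R library. Jun fell by 15%, from 130.2 ± 2.51 to 110.6 ± 4.89 CPM (SD, n = 3 per group), a log2 difference of -0.23 (SE 0.04, 95% interval -0.32 to -0.14, edgeR adjusted p = 7.45e-05). The difference exceeds the spread within either group. A change at least as large was seen in 3344 of the 11658 genes tested.

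Junb (ENSMUSG00000052837, chromosome 8, 85701113 to 85705347, minus strand, 1 exon) encodes JunB, which can oppose c-Jun at shared sites. It stood at 74.0, 73.5 and 70.1 CPM in OGD/R and at 69.9, 79.7 and 68.9 CPM with phillyrin. The groups overlapped, and phillyrin replicate 2 was the highest of the 6 libraries. The log2 difference was 0.01 (SE 0.06, 95% interval -0.10 to 0.13, edgeR adjusted p = 0.896). It turned to -0.032 with library size as the only scaling, to -0.013 without OGD/R replicate 3 and to -0.058 without phillyrin replicate 2. The last 351 bases of the Junb span overlap Prdx2, a peroxiredoxin gene on the other strand, which fell from 114.8 ± 1.19 to 98.9 ± 6.33 CPM (SD, n = 3 per group).

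Jund (ENSMUSG00000071076, chromosome 8, 71151599 to 71153265, plus strand, 1 exon) encodes JunD, the JUN protein usually held at a steady level in resting cells. Its values were 9.57, 10.3 and 7.95 CPM in OGD/R and 8.95, 9.60 and 9.74 CPM with phillyrin. All 3 phillyrin libraries lay within the range of the OGD/R libraries. The log2 difference was 0.02 (SE 0.12, 95% interval -0.23 to 0.28, edgeR adjusted p = 0.908), and it was -0.021 by library size alone and -0.076 without OGD/R replicate 3. At this depth, 140 to 213 counts per library, a change of the size seen for Jun lies at the edge of the interval.

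Atf3 (ENSMUSG00000026628, chromosome 1, 190902493 to 190950236, minus strand, 4 exons) encodes a stress-induced bZIP protein that pairs with JUN proteins and often represses. It stood at 71.6, 76.3 and 72.4 CPM in OGD/R and at 60.5, 60.2 and 65.7 CPM with phillyrin. The groups did not overlap, and phillyrin replicate 3 came nearest to the OGD/R libraries. Atf3 fell by 15.6%, from 73.4 ± 2.50 to 62.1 ± 3.13 CPM (SD, n = 3 per group), a log2 difference of -0.24 (SE 0.06, 95% interval -0.36 to -0.13, edgeR adjusted p = 0.000684).

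**Figure D1:**
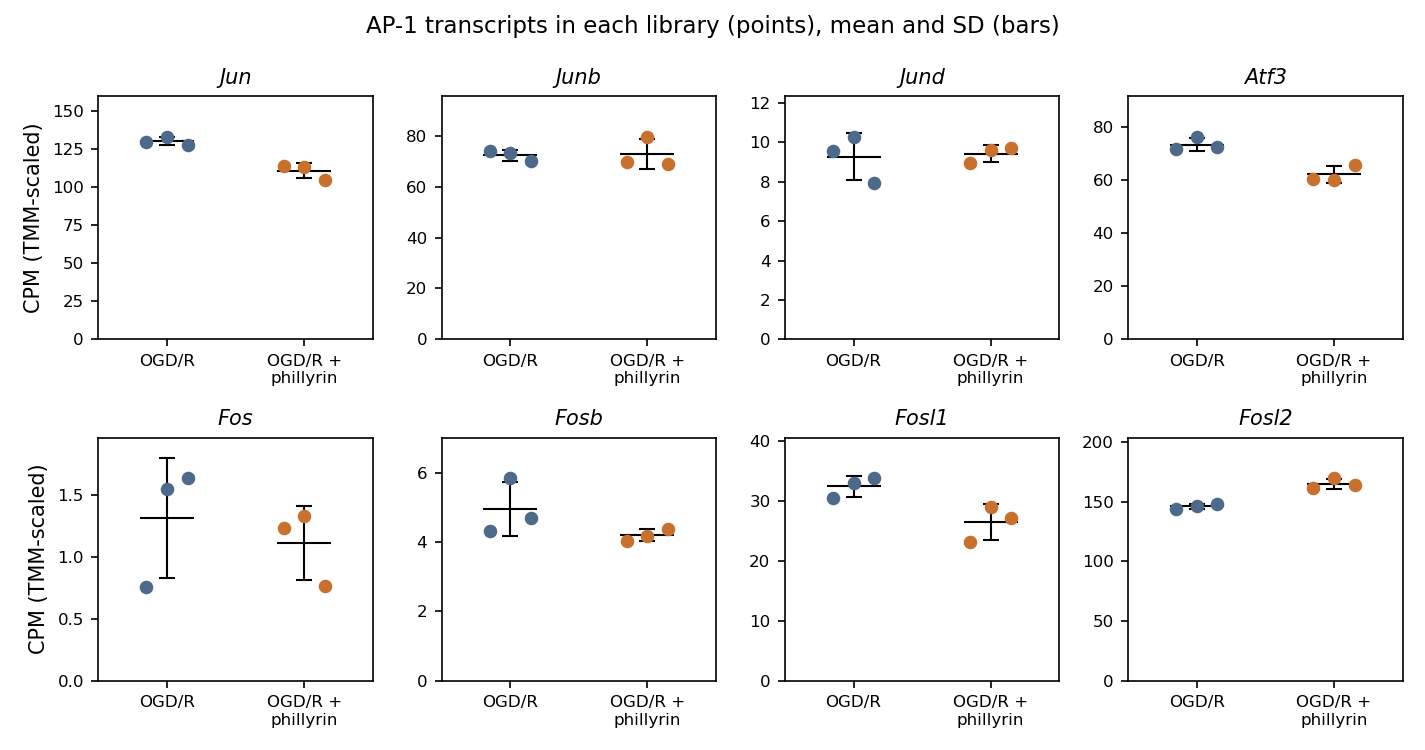
Level of each AP-1 transcript in every library, in CPM with TMM scaling on the vertical axis (each panel has its own scale, starting at 0). Points are libraries, the long bar is the group mean and the whiskers are 1 SD (n = 3). Jun, Atf3 and Fosl1 lie lower in all 3 phillyrin libraries and Fosl2 lies higher, while the groups overlap for the other 4 genes.

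Fos (ENSMUSG00000021250, chromosome 12, 85520664 to 85524047, plus strand, 4 exons) encodes c-Fos, the classic immediate early protein, whose transcript is known to peak and decay early after a stimulus. Only 14, 32 and 31 counts were found in OGD/R and 21, 29 and 11 with phillyrin, which is 0.757, 1.54 and 1.63 CPM and 1.23, 1.33 and 0.765 CPM. All 3 phillyrin values lay within the range of the OGD/R values. The log2 difference was -0.22 (SE 0.34, 95% interval -0.91 to 0.48, edgeR adjusted p = 0.668). An effect of the size seen for Jun was not detectable at this depth.

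Fosb (ENSMUSG00000003545, chromosome 7, 19036621 to 19043976, minus strand, 4 exons) encodes FosB, a further immediate early member, known in long and truncated forms that these gene counts do not separate. It stood at 4.33, 5.84 and 4.68 CPM in OGD/R and at 4.04, 4.16 and 4.38 CPM with phillyrin. A single phillyrin library, replicate 3, lay inside the OGD/R range, and replicate 2 of OGD/R was the highest. The log2 difference was -0.25 (SE 0.18, 95% interval -0.60 to 0.11, edgeR adjusted p = 0.300), about that of Jun but with a wider error.

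Fosl1 (ENSMUSG00000024912, chromosome 19, 5497575 to 5505974, plus strand, 4 exons) encodes Fra-1, a late FOS protein that lacks the activation domain of c-Fos and is itself known as a product of AP-1 activity. The OGD/R libraries held 30.6, 33.1 and 33.8 CPM and the phillyrin libraries 23.2, 29.1 and 27.1 CPM. No phillyrin library reached the lowest OGD/R library, and phillyrin replicate 1 was well below the other two. Fosl1 fell by 18.3%, from 32.5 ± 1.73 to 26.5 ± 2.97 CPM (SD, n = 3 per group), a log2 difference of -0.29 (SE 0.08, 95% interval -0.45 to -0.13, edgeR adjusted p = 0.00420). Without phillyrin replicate 1 the difference was -0.20 and the call was lost (edgeR adjusted p = 0.0601). The spans of Fosl1 and of Ccdc85b on the other strand share 2767 bases, and Ccdc85b also fell, from 36.9 ± 2.00 to 30.0 ± 0.590 CPM (SD, n = 3 per group, log2 difference -0.30, SE 0.07). The strand setting of the counting is not given in the sources used here, so reads of these neighbours cannot be told apart, nor those of Junb and Prdx2.

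Fosl2 (ENSMUSG00000029135, chromosome 5, 32293145 to 32315186, plus strand, 4 exons) encodes Fra-2, the other late FOS protein, and was the only AP-1 gene of the 8 that rose. Its values were 144, 146 and 148 CPM in OGD/R and 161, 170 and 164 CPM with phillyrin. The lowest phillyrin library stood above the highest OGD/R library by more than the range of the OGD/R group. Fosl2 rose by 13.1%, from 146 ± 1.74 to 165.1 ± 4.30 CPM (SD, n = 3 per group), a log2 difference of 0.18 (SE 0.04, 95% interval 0.10 to 0.26, edgeR adjusted p = 0.000657).

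The 4 calls were tried with other tools. DESeq2 gave adjusted p-values of 6.59e-05 for Jun, 0.00105 for Atf3, 0.0114 for Fosl1 and 0.000348 for Fosl2, and the other 4 genes did not pass with it. Leaving out any one library kept Jun between -0.25 and -0.20, Atf3 between -0.28 and -0.22 and Fosl2 between 0.16 and 0.20 on the log2 scale, all past the threshold. Against a minimum fold of 1.5 (glmTreat in edgeR) 0 of the 8 passed (also 0 at an unadjusted p under 0.05), and 50 of all genes did. By size of change, without regard to sign or error, Fosl1 was larger than 79.2% of the genes tested, Atf3 than 73.0%, Jun than 71.3% and Fosl2 than 60.6%.

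**Figure D2:**
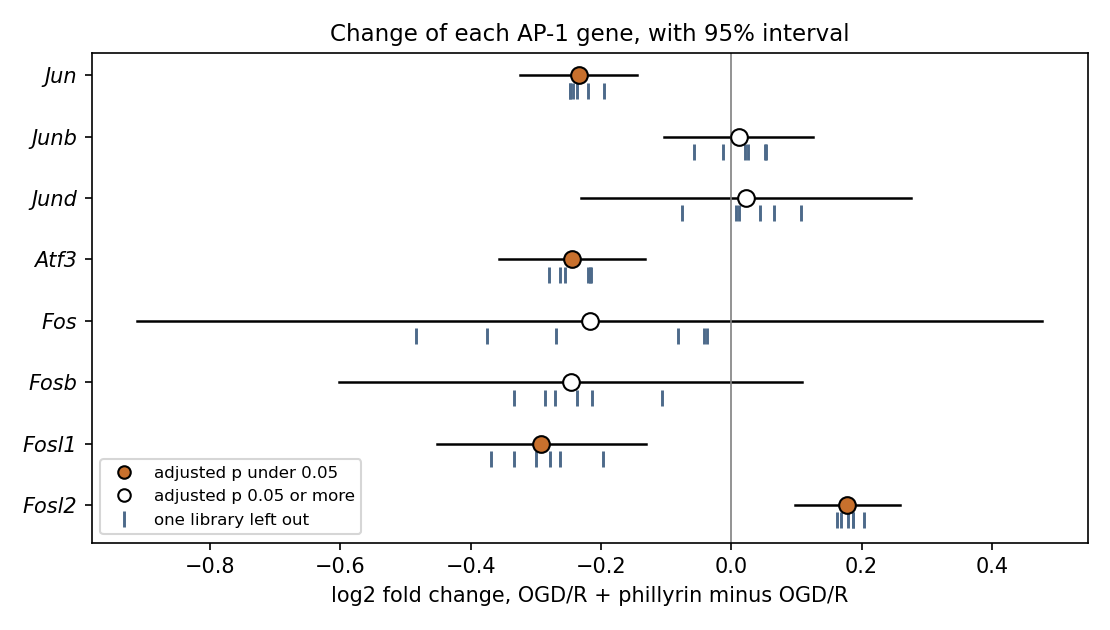
Log2 fold change of each AP-1 gene, OGD/R + phillyrin minus OGD/R (horizontal axis), with its 95% interval from edgeR. Filled circles passed the adjusted threshold of 0.05, open circles did not, and the ticks below each circle are the values with 1 library left out. Fosl2 alone lies to the right of 0 with its interval, Jun, Atf3 and Fosl1 lie to the left with theirs, and the Fos interval spans -0.91 to 0.48.

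Levels were compared between genes on the FPKM scale, which divides counts by gene length. In OGD/R the order was Jun at 41.4 ± 0.819, Atf3 at 34.6 ± 1.15, Junb at 32.0 ± 0.985, Fosl1 at 16.2 ± 0.827, Fosl2 at 15.3 ± 0.150, Jund at 5.64 ± 0.733, Fosb at 0.804 ± 0.128 and Fos at 0.565 ± 0.207 FPKM (SD, n = 3 per group). Fosl1 and Fosl2 overlapped in these libraries, and the lowest Fosb value (0.705) was next to the highest Fos value (0.703). The other neighbours in the order were separated in all 3 libraries.
With phillyrin the means were 34.1 ± 1.82 for Jun, 31.2 ± 2.71 for Junb, 28.4 ± 1.16 for Atf3, 16.8 ± 0.479 for Fosl2, 12.8 ± 1.42 for Fosl1, 5.57 ± 0.216 for Jund, 0.661 ± 0.0217 for Fosb and 0.464 ± 0.129 FPKM for Fos (SD, n = 3 per group). Jun then overlapped Junb, Junb overlapped Atf3, and Fosl2 stood above Fosl1 in each library. Jun, Junb and Atf3 were thus the abundant members in both groups, and Fos and Fosb were scarce. By mean FPKM over all 6 libraries, the first 3 stood at or above 86.7% of the genes tested. Fos and Fosb stood at or above 9.01% and 11.7%.

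As parts of the summed FPKM of the 8 genes, a measure that does not depend on how libraries are scaled to one another, Fosl2 made up 10.4%, 10.2% and 10.7% in OGD/R and 12.9%, 12.8% and 13.0% with phillyrin. Jun went the other way, with 28.5%, 28.1% and 28.2% against 27.7%, 25.9% and 25.2%. Fosl1 made up 11.1 ± 0.591% and 9.85 ± 0.846% (SD, n = 3 per group) and was lower in every phillyrin library. Shares are tied to one another, so those of Junb (21.8 ± 0.599% and 24.0 ± 1.21%) and Jund (3.84 ± 0.434% and 4.28 ± 0.166%) were higher in every phillyrin library although their own levels had overlapped. Atf3 made up 23.6 ± 0.315% and 21.9 ± 1.48%, with overlap. With raw counts in place of FPKM the shares of Junb and Jund overlapped and that of Atf3 was lower in every phillyrin library. The summed FPKM was 145, 150 and 144 in OGD/R and 127, 135 and 127 with phillyrin, without overlap. FPKM is scaled by raw library totals and divided by gene length. In TMM-scaled CPM, which is not divided by length, the sum of the 8 genes was 465 to 479 in OGD/R and 442 to 467 with phillyrin, and the groups overlapped.

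Ratios were also taken within each library. They were chosen after the values above had been seen and carry no test. The ratio of Fosl2 to Fosl1 in FPKM was 0.991, 0.927 and 0.917 in OGD/R and 1.46, 1.23 and 1.27 with phillyrin. The ratio of Jun to Junb was 1.27, 1.30 and 1.32 in OGD/R and 1.17, 1.03 and 1.10 with phillyrin. Both sets were separate between the groups. The ratio of Atf3 to Jun, by contrast, averaged 0.835 ± 0.0172 and 0.834 ± 0.0808 (SD, n = 3 per group) and overlapped, as did the summed FOS level over the summed JUN level.

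**Figure D3:**
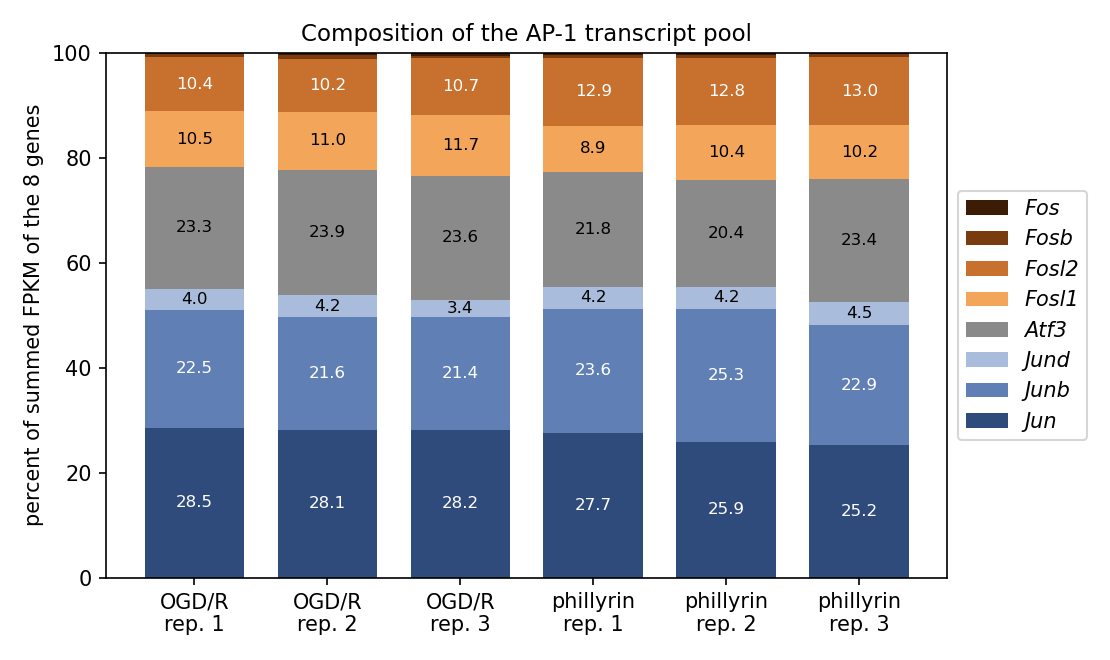
Each AP-1 gene as a percent of the summed FPKM of the 8 genes (vertical axis) in each of the 6 libraries (bars). The Fosl2 segment widens from between 10.2% and 10.7% in OGD/R to between 12.8% and 13.0% with phillyrin, while the Jun and Fosl1 segments narrow; Fos and Fosb are too thin to label.

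Across the 6 libraries, log2 CPM of Jun and Atf3 had a Pearson r of 0.80, Fosl1 and Atf3 0.81, Fosl2 and Jun -0.91, and Fosl2 and Atf3 -0.90. These describe 6 libraries that share the difference between 2 groups, and they carry no test. The genes most like each changed member were drawn from 9776 tested genes by the same measure. For Jun they were Thsd7a (r = 0.998), Ahsa2 (0.994) and Emc2 (0.994), and for Atf3 they included Ercc3 (0.992) and Tmem62 (0.992). For Fosl1 they were Lgals1 (0.996), Xbp1 (0.995) and Zfp799 (0.992), and for Fosl2 they were Fntb (0.999), Incenp (0.998) and Spopl (0.997). Again the 6 libraries fall into 2 groups, and r does not measure the size of a change. Zfp799 (log2 difference -0.06, SE 0.12) and Ercc3 (-0.12, SE 0.05) did not pass the test themselves.

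Among other bZIP partners of AP-1, 8 of 13 were tested, 1 rose and 3 fell, with a median log2 difference of -0.05. Over all genes tested, 16% rose and 15.6% fell. Creb5 fell from 120 ± 1.87 to 104 ± 0.963 CPM and Atf2, a CRE-binding partner of c-Jun, from 99.4 ± 2.10 to 86.7 ± 1.82 CPM (SD, n = 3 per group), both with a log2 difference of -0.20. Atf7, a close relative of Atf2, rose from 143 ± 2.51 to 159 ± 4.27 CPM (SD, n = 3 per group, log2 difference 0.15). Mafk, a small Maf protein, fell by 0.19 on the log2 scale, a call lost in 6 of 13 alternatives. The number of partners that rose was 2 under RLE scaling and without the low-count filter.

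The kinases upstream of AP-1 moved in both directions. Of 20 MAP kinases and activators tested (22 listed), 3 rose and 4 fell, against 16% and 15.6% of all genes. Their median was 0.02. Those that fell were 3 p38 kinases and ERK5. Mapk12 went from 36.1 ± 0.582 to 29.8 ± 1.57 CPM (log2 difference -0.27), Mapk11 from 24.9 ± 1.60 to 19.9 ± 1.19 CPM (-0.33) and Mapk14, the major p38, from 80.7 ± 0.0846 to 71.1 ± 4.03 CPM (-0.19, SD, n = 3 per group). Mapk7, which encodes ERK5, fell by 0.27 on the log2 scale. The Mapk14 call was lost without phillyrin replicate 1 (edgeR adjusted p = 0.0520) and the Mapk7 call without phillyrin replicate 3 (0.0534). Map2k5, Map2k1 and Braf rose by 0.24, 0.16 and 0.13 on the log2 scale, but none did by library size alone, and only 1 did without OGD/R replicate 2 or 3. The transcripts of the JNK kinases Mapk8 and Mapk9, picked after their values were seen, had log2 differences of -0.01 and 0.00 (SE 0.05 and 0.06).

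SRF, its ternary complex partners, CREB and MEF2 proteins bind the promoters of immediate early genes. Of these 12 factors, 1 rose and 3 fell, against 16% and 15.6% of all genes, with a median of -0.02. Mef2d fell from 116 ± 3.01 to 101 ± 2.09 CPM and Mrtfa, an actin-regulated partner of SRF, from 97.2 ± 6.48 to 84.3 ± 4.05 CPM (SD, n = 3 per group), both by 0.20 on the log2 scale. Elk3 fell by 0.14, a call lost without phillyrin replicate 2 (edgeR adjusted p = 0.0706), and Elk4 rose by 0.13, a call lost in 6 of 13 alternatives. Srf itself, looked up after its value was seen, differed by -0.09 (SE 0.05) and did not pass.

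The dual-specificity phosphatases switch off MAP kinases and are themselves induced by them. Of 11 tested, 5 fell and 1 rose, against 15.6% and 16% of all genes, with a median of -0.15. Dusp5, a nuclear phosphatase of ERK, stood at 107, 100 and 105 CPM in OGD/R and at 73.7, 73.7 and 68.3 CPM with phillyrin. It fell by 0.53 on the log2 scale (SE 0.05, edgeR adjusted p = 1.12e-10). Dusp6, the cytoplasmic ERK phosphatase, stood at 253, 249 and 253 CPM in OGD/R and at 211, 208 and 207 CPM with phillyrin. It fell by 0.27 (SE 0.04, edgeR adjusted p = 2.44e-07). Dusp14 fell by 0.37, Dusp4 by 0.18 and Dusp8 by 0.18, the last a call lost in 5 of 13 alternatives. Dusp16, which acts on JNK, rose from 83.7 ± 0.723 to 98.1 ± 3.17 CPM (SD, n = 3 per group, log2 difference 0.23).

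Of 11 genes for the decay of AP-1 transcripts and proteins, 4 rose and 2 fell, against 16% and 15.6% of all genes. Their median was 0.09. The 4 that rose were Cop1 (101 ± 5.27 to 117 ± 2.28 CPM), Elavl1, which encodes the AU-rich element binder HuR (131 ± 1.51 to 147 ± 9.35 CPM), Itch (112 ± 2.34 to 124 ± 5.01 CPM) and Fbxw7 (38.0 ± 2.37 to 43.3 ± 2.62 CPM, SD, n = 3 per group). Cop1, Itch and Fbxw7 encode ubiquitin ligase components known to act on c-Jun, whereas HuR is known to stabilise AU-rich transcripts. By library size alone 2 rose. Trib1, an adaptor of Cop1, fell from 71.6 ± 3.69 to 58.7 ± 1.38 CPM, and Zfp36l2, which promotes the decay of AU-rich transcripts, from 519 ± 11.3 to 464 ± 10.4 CPM (SD, n = 3 per group).

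Other immediate early genes included both directions, with 8 lower and 4 higher of 24 tested and a median of -0.07. The shares over all genes were 15.6% lower and 16% higher. By library size alone 11 of these immediate early genes fell and 3 rose. Egr1, a zinc finger factor induced by the same ERK and SRF route as Fos, stood at 114, 116 and 120 CPM in OGD/R and at 83.8, 86.5 and 91.1 CPM with phillyrin. It fell by 0.42 on the log2 scale (SE 0.05, edgeR adjusted p = 5.60e-09), and Egr3 fell by 0.49 (SE 0.05, edgeR adjusted p = 1.88e-09). Klf2 fell by 0.39. Ccn2, a matricellular growth factor, rose from 86.7 ± 2.99 to 145 ± 6.74 CPM (SD, n = 3 per group), a log2 difference of 0.74. The other 3 that rose were Egr2 by 0.44, Ier5 by 0.23 and Klf4 by 0.14. The rest of the 8 that fell were Arc, Nr4a1, Csrnp1, Klf10 and Myc. Their log2 differences were -0.56, -0.41, -0.35, -0.23 and -0.16.

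Atf3 is a known target of the stress factors ATF4 and CHOP. Of 12 genes of that group, 3 rose and 5 fell, against 16% and 15.6% of all genes, with a median of 0.02. Ddit3, which encodes CHOP, stood at 59.2, 61.8 and 58.9 CPM in OGD/R and at 45.6, 43.7 and 41.3 CPM with phillyrin, and fell by 0.46 on the log2 scale (SE 0.06, edgeR adjusted p = 1.20e-07). Chac1, a glutathione-degrading enzyme downstream of both factors, fell from 123 ± 4.34 to 90.0 ± 2.62 CPM (SD, n = 3 per group, log2 difference -0.45). Nupr1, Ppp1r15a and Xbp1 fell by 0.22, 0.16 and 0.15. The Nupr1 libraries overlapped between the groups, with phillyrin replicate 1 at 139.4 CPM and OGD/R replicate 1 at 137.9 CPM. The number of genes in the group that fell was 3 without OGD/R replicate 3 or without phillyrin replicate 1 or 3. Atf5 rose from 183 ± 3.64 to 260 ± 14.5 CPM (SD, n = 3 per group, log2 difference 0.51), Cebpg by 0.21 and Atf6 by 0.13. Atf4 itself, looked up after its value was seen, stood at 875 ± 28.6 and 887 ± 40.2 CPM (SD, n = 3 per group) and did not pass. Ddit3 overlaps Mars1 and Atf5 overlaps Nup62 on the other strand, so their reads cannot be told apart. Of the genes named from the other lists, Mafk, Map2k1, Braf, Mrtfa, Elk3, Elk4, Elavl1, Fbxw7, Ppp1r15a and Ccnd1 also overlap a gene with counts on the other strand.

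Genes known from other work as AP-1 targets split evenly, with 5 higher and 5 lower of 20 tested (23 listed). Their median was -0.02, and the shares over all genes were 16% higher and 15.6% lower. By library size alone 5 targets rose and 7 fell. Among those that fell were Prl2c2 and Prl2c3, the placental prolactin family genes known as proliferins. Prl2c3 stood at 85.2, 95.0 and 93.7 CPM in OGD/R and at 38.7, 39.9 and 38.0 CPM with phillyrin, a log2 difference of -1.23 (SE 0.06). Prl2c2 had a log2 difference of -1.56 (SE 0.09), and because these copies are nearly identical, the division of reads between them is uncertain. Ccl2, the monocyte chemokine, stood at 22.9, 24.0 and 22.7 CPM in OGD/R and at 9.18, 10.1 and 6.61 CPM with phillyrin (log2 difference -1.40, SE 0.11, edgeR adjusted p = 6.94e-13). Spp1, which encodes osteopontin, fell by 0.64 and Plaur, the urokinase receptor, by 0.16.
In the other direction Ptgs2, which encodes cyclooxygenase-2, stood at 400, 412 and 413 CPM in OGD/R and at 607, 598 and 575 CPM with phillyrin. Its log2 difference was 0.54 (SE 0.03, edgeR adjusted p = 2.53e-15). Gja1, the gap junction protein connexin 43, rose by 0.35, Hmox1, heme oxygenase 1, by 0.33, Il11 by 0.75 and Il6 by 1.25. Il6 was near the lower end of detection, at 1.11 ± 0.124 and 2.69 ± 0.598 CPM (SD, n = 3 per group). Among the targets that did not pass were Ccnd1, cyclin D1, at 410 ± 3.97 and 406 ± 24.6 CPM and Cd44 at 937 ± 12.9 and 938 ± 21.7 CPM (SD, n = 3 per group), with log2 differences of -0.01 and 0.00 (SE 0.04 and 0.03). These were picked after their values were seen.

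**Figure D4:**
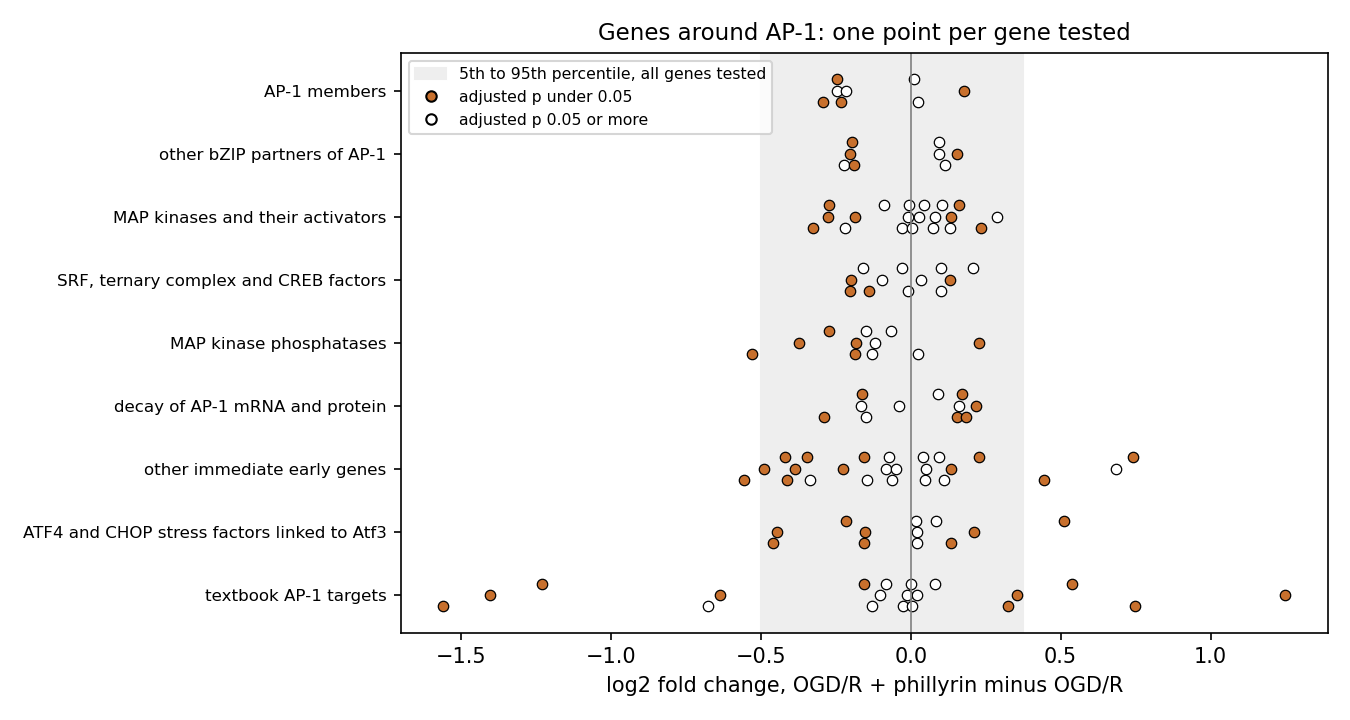
Log2 fold change, OGD/R + phillyrin minus OGD/R (horizontal axis), of every tested gene in the AP-1 family and in 8 lists around it, 1 point per gene. Filled points passed the adjusted threshold of 0.05, and the grey band holds the 5th to 95th percentile of all 11658 genes tested, from -0.50 to 0.37. All AP-1 genes lie inside the band, while Prl2c2, Ccl2, Prl2c3 and Spp1 are among the genes to its left and Ptgs2, Il11 and Il6 among those to its right.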

How the data were processed

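Poly(A)-selected RNA of 6 libraries was sequenced in pairs, per the labels' protocols. The submitters' processing notes list HISAT2 2.2.1, Trimmomatic 0.39, DESeq2 1.34.0 and featureCounts 2.0.3, with build GRCm39. The sources used here give no annotation, strand or multi-mapping setting. Per the file headers, the authors deposited read counts and FPKM for every gene in each library. The deposited FPKM equalled count over gene length and library total within a relative difference of 2.43e-07. Columns were matched by sample title.

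Counts were tested with edgeR 4.0.16 (R 4.3.3): filterByExpr by group, TMM factors, robust quasi-likelihood test, two-sided, Benjamini-Hochberg over 11658 genes, threshold 0.05, no covariate. CPM used TMM-scaled totals, and log2 CPM a prior count of 2. Scripts were tested on simulated data. The labels do not state that a group's libraries are separate cultures, so p-values may reflect technical spread only. An exact permutation test of 3 against 3 cannot give a two-sided p below 0.1. Alternatives were RLE factors, library size alone, DESeq2 1.42.0, limma-voom (limma 3.58.1), all genes without a low-count filter, genes averaging at least 1 CPM, each library left out, a replicate block, glmTreat and, for shares, raw counts. Promoter and UTR sequences came from GRCm38 tables, and gene coordinates from the deposited table, read as GRCm39.

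Members and lists were chosen with earlier results of these data known. The text names all members, up to 4 genes of smallest p per list (6 for phosphatases and targets) and the 3 genes most correlated with each changed member, from genes averaging at least 2 log2 CPM. Other genes were named after their values were seen. One gene selected by this rule is not reported here.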

Additional observations from a re-analysis of the deposited data

How the results depend on the processing

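Jun, Atf3 and Fosl2 kept their direction and their side of the threshold under all 13 alternatives without a fold minimum, and Fosl1 under 12 of them. Fos, Fosb, Junb and Jund passed under none. Against a fold of 1.5 (glmTreat), 50 genes passed (16 higher, 34 lower) and 0 AP-1 genes (0 higher, 0 lower), with log2 differences of -0.29 for Fosl1, 0.18 for Fosl2, -0.23 for Jun and -0.24 for Atf3. Library size alone gave -0.032 for Junb and -0.021 for Jund, 0 higher calls among MAP kinases, 0 among SRF, ternary complex and CREB factors and 2 among decay genes. The same scaling gave 11 lower and 3 higher calls among other immediate early genes, and 7 lower and 5 higher among AP-1 targets. RLE factors gave 2 higher calls among bZIP partners and 2 among SRF, ternary complex and CREB factors, DESeq2 gave 0 among the latter, and no low-count filter gave 2 among bZIP partners. With 1 library left out, the ranges were -0.37 to -0.20 for Fosl1, -0.058 to 0.054 for Junb (-0.013 without OGD/R replicate 3), -0.076 to 0.11 for Jund, 1 to 2 higher bZIP partners, 1 to 4 higher MAP kinases, 0 to 2 higher SRF, ternary complex and CREB factors and 3 to 5 lower ATF4 and CHOP genes. The causes were not tested.

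As percent of summed counts in place of FPKM, which weights long transcripts more, the shares in OGD/R and with phillyrin were 27.7 and 24.5 for Jun, 15.4 and 16.1 for Junb, 1.97 and 2.09 for Jund, 15.6 and 13.8 for Atf3, 1.05 and 0.928 for Fosb, 6.91 and 5.85 for Fosl1, and 31.1 and 36.5 for Fosl2. Fos stood at 0.244 with phillyrin. The fit with the replicate number as a block called 3709 genes and the same number of AP-1 genes, 4 (1 higher, 3 lower), with log2 differences of -0.24 for Jun, -0.24 for Atf3, -0.30 for Fosl1 and 0.18 for Fosl2. Same-numbered libraries showed almost no common deviation over all genes (correlations 0.00278, 0.00561 and 0.00322). Such a measure cannot show that they share no culture or batch. Depth limits Fos most, with 11 to 32 counts per library.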
